A study of Mus musculus with 13 samples.

Results

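Heat shock proteins and their DNAJ partners fold new proteins, refold damaged ones and hand the rest to degradation. The set analysed here is every gene whose symbol begins with Hspa, Hspb, Hspd, Hspe, Hsph, Hsp90, Dnaja, Dnajb or Dnajc followed by a digit or a lower case letter, which takes 75 of the 32285 genes in the count tables. The rule reads symbols alone, so it also takes members that no stress induces and a few that share only the name, such as Hspbp1, a regulator of HSP70 proteins. UMIs (unique molecular identifiers, which tag single captured RNA molecules) were found for all but 2 of the 75.

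The cells came from 10 colon tumors and 3 pieces of adjacent mucosa of 3 C57BL/6J mice. All of them were ApcMin/+; p16cis/cis, that is, heterozygous for a truncating Apc allele that starts intestinal tumors and homozygous for an engineered p16 allele prone to promoter methylation, and all received the supplemented diet, with extra folic acid, vitamin B12, choline and betaine. There was no other genotype and no control diet among these libraries, so the comparison is of tissue only. By the animal codes in the labels, mouse A (24 weeks) gave tumors 5 to 8 and mucosa 2, mouse B (23 weeks) tumors 9 and 10 and mucosa 3, and mouse C (20 weeks) tumors 1 to 4 and mucosa 1. Tumors were dissociated with a tumor dissociation kit and mucosa with EDTA and TrypLE, so tissue and dissociation cannot be told apart in any comparison given here. The genotype is that of the whole animal, mucosa included, and several tumors of 1 mouse are not independent animals.

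Sex was not used as a condition. The labels call 7 libraries Female and 6 Male, with both within a single animal code, but 4 Y-linked genes together held 104 to 126 counts per 1000000 UMIs (CPM) in the libraries labelled Female and 108 to 125 CPM in those labelled Male, and Xist reached at most 0.129 CPM in any library. The 13 libraries held 6537 to 15049 barcodes and 57221300 to 116133079 UMIs each, and 108495 cells remained after filtering, 85953 from tumors and 22542 from mucosa. Any pair of libraries shared at most 0.561% of the barcodes of the smaller library. Cells were clustered without the 75 chaperone genes, and clusters were named from marker genes, so every class below is "-like" and rebuilt here. In sums over many cells, fewer cells with a transcript and less transcript per cell cannot be told apart.

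The cell works with several chaperone systems at once. HSP70 proteins hold unfolded stretches in cycles of ATP hydrolysis that J proteins start and HSP110 proteins reset, HSP90 takes clients at a later stage, and small heat shock proteins such as HSPB1 hold aggregating proteins without using ATP. When misfolded protein builds up in the cytosol, the transcription factor HSF1 binds repeats of the sequence nGAAn, the heat shock element, and induces Hspa1a, Hspa1b, Hsph1, Dnajb1 and others. The endoplasmic reticulum (ER) and the mitochondria have their own sets, and the ER set answers to the unfolded protein response instead, through the ER stress element.

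Some of these elements can be found in the promoters of the family. Promoters here are RefSeq windows of 300 bases on GRCm38.p6, 250 before and 50 from each gene's start, for 32851 starts, of which 77 belong to 60 of the 75 genes. Motifs were read on both strands. The 3-unit heat shock element (GAA, TTC and GAA, each 2 bases apart) was in 198 of all windows (0.603%) and in 6 of the 77 member windows. These belong to 4 of the 60 genes, namely Hsph1, Hspe1, Hspd1 and Dnajb6. The ER stress element (CCAAT and CCACG, 9 bases apart) was in 39 windows (0.119%) and in 3 of the 77 member windows. These belong to 3 of the 60 genes, Hspa5, Hsp90b1 and Dnajc3, all of them genes of the ER. The UPR element (TGACG directly followed by TGG) was in 222 windows (0.676%) and in 1 of the 77 member windows, that of Dnajc25. A looser 2-unit element (GAA and TTC in either order, 2 bases apart) was added after the sequences had been seen, and a 3-unit element always holds a 2-unit element. It was in 4946 windows (15.1%) and in 18 of the 77 member windows. These belong to 16 of the 60 genes, including Hspa1a, Hspa1b, Hspb1, Hspb8, Dnaja1, Dnaja4 and Dnajb4. A match is a string of letters, not a measured binding site.

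The windows of 6 genes described below are shown with the match in capitals. They are Hspa1a and Hspa1b (chr17:34972107-34972406 and chr17:34959189-34959488, both on the minus strand, with the 2-unit element), Hsph1 (chr5:149636287-149636586, minus) and Hspe1 (chr1:55087898-55088197, plus), both with the 3-unit element, and Hspa5 (chr2:34771840-34772139, plus) and Hsp90b1 (chr10:86705395-86705694, minus), both with the ER stress element.
Hspa1a: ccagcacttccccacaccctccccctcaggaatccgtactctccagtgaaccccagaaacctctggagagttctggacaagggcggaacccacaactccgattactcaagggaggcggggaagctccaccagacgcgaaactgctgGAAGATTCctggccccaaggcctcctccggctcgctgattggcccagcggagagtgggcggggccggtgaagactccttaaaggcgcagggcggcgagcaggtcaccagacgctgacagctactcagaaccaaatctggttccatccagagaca
Hspa1b: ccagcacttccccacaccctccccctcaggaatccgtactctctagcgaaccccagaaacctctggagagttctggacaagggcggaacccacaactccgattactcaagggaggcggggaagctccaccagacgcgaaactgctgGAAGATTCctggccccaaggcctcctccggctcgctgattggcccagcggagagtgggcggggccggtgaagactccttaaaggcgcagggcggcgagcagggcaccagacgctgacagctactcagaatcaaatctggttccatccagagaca
Hsph1: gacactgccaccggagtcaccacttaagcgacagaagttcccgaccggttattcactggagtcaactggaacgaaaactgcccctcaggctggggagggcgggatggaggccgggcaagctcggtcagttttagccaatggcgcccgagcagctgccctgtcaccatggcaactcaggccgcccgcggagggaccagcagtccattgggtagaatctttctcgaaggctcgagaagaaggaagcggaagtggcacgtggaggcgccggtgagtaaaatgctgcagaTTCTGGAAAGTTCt
Hspe1: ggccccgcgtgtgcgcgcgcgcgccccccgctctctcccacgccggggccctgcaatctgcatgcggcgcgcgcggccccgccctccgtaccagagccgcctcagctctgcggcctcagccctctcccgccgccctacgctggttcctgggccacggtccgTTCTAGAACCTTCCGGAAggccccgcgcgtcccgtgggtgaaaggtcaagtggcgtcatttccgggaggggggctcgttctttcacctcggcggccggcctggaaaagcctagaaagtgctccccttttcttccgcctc
Hspa5: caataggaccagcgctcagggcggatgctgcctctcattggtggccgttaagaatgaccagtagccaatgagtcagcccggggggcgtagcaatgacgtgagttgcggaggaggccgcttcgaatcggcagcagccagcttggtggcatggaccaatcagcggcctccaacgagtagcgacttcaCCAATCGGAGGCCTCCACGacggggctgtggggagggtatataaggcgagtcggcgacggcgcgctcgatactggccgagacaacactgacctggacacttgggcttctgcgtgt
Hsp90b1: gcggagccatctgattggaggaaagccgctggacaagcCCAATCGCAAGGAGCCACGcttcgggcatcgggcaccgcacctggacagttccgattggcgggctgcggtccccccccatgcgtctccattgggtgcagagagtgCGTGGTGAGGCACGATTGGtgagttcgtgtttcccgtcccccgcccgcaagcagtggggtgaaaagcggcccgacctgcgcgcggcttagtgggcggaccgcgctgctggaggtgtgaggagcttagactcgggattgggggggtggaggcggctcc
The windows of Hspa1a and Hspa1b are identical at 296 of 300 positions (98.7%). The transcripts are also alike, as 56.3% of the 60-base words of Hspa1a occur in Hspa1b, but of the words in the last 500 bases, where a 3′ library is read, 0% do, so the 2 genes are reported apart. In Hspe1 the capitals cover 2 overlapping matches. Hspe1 and Hspd1, which encode the lid and the barrel of the mitochondrial folding chamber, start head to head on chromosome 1 (Hspd1 55077835 to 55088243 on the minus strand, Hspe1 55088132 to 55091307 on the plus strand).

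To ask how the set differs between tumor and mucosa epithelium, UMIs were summed over all epithelial cells of each library (17914 cells in tumors, 15227 in mucosa) and tested with edgeR's quasi-likelihood test. Of the 75 genes, 65 passed the filter on low counts. At a Benjamini-Hochberg adjusted p under 0.05 over all 15532 genes tested, 22 of the 65 were higher in tumors and 23 lower, where the background is 33.6% of all genes higher and 30.1% lower. Both shares of the members lay near the background, and the difference from it was not tested. The median log2 fold change was 0.01 over the members and 0.04 over all genes. Normalization matters for the split. When libraries were scaled by total UMIs alone, without TMM factors, the median of all genes shifted to 0.30, and 31 members were called higher and 14 lower, beside 44.6% and 20.0% of all genes; the log2 fold changes below are TMM-scaled, while levels are CPM of the sum. The members are given below by role, and no difference between roles was tested.

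**Figure D1:**
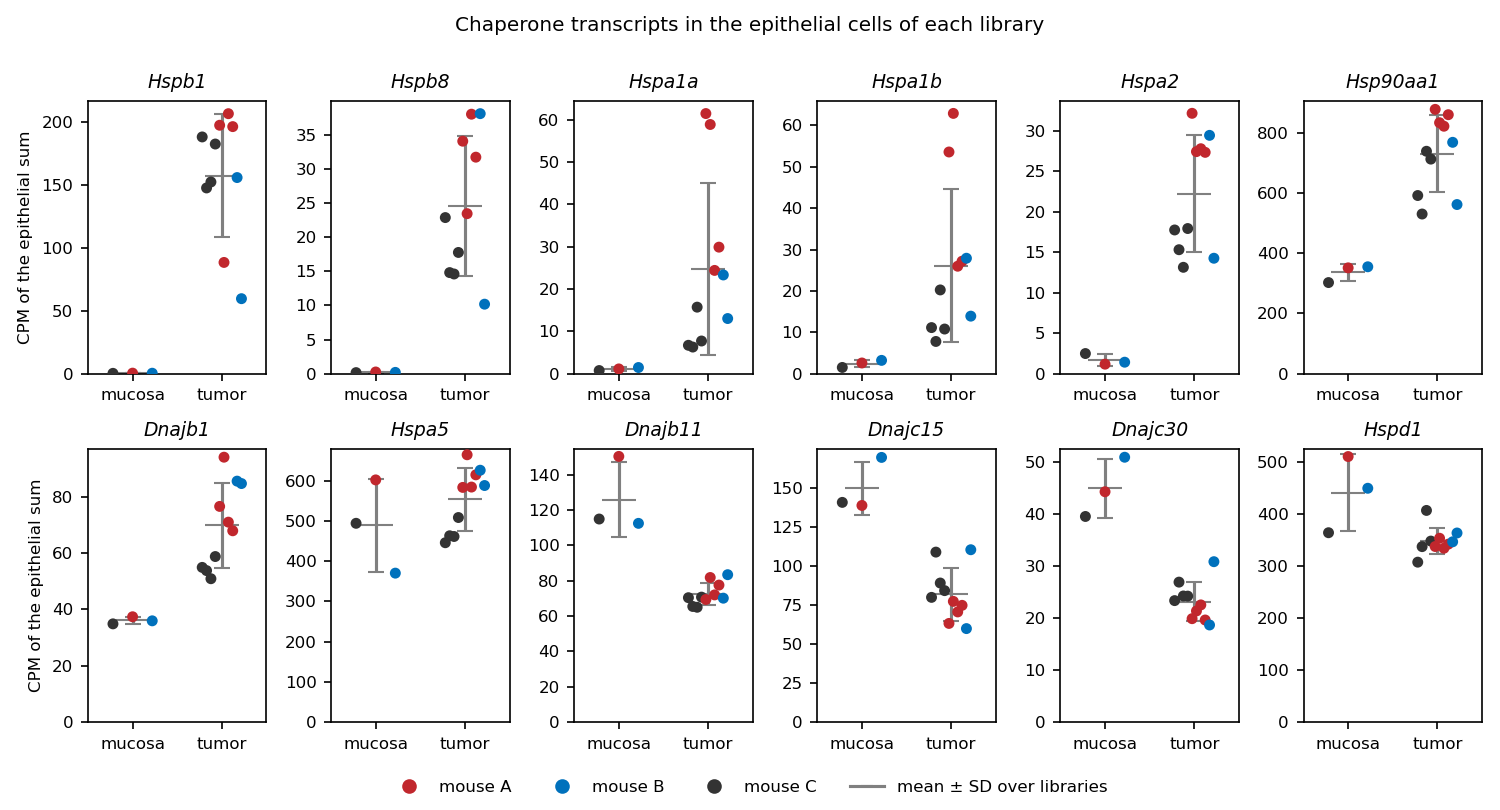
CPM of 12 chaperone genes in the epithelial sum of each of the 3 mucosa and 10 tumor libraries, colored by mouse, with the mean ± SD over libraries and axes that start at 0. Hspb1, Hspb8, Hspa1a, Hspa1b, Hspa2, Hsp90aa1 and Dnajb1 lie higher in every tumor than in any mucosa library, Dnajb11, Dnajc15 and Dnajc30 lie lower in every tumor, and Hspa5 and Hspd1 overlap.

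Of the small heat shock proteins, Hspb1 and Hspb8 were far higher in tumors. Hspb1, which holds misfolding proteins and binds actin filaments, was 0.340, 0.496 and 0.433 CPM in mucosa 1, 2 and 3, and from 59.7 to 207 CPM (median 169) in the tumors. No tumor came near the mucosa, and the lowest tumors were 10 and 6. The log2 fold change was 8.26 (SE 0.48, adjusted p = 5.02e-08). Hspb8, a partner of the co-chaperone Bag3 in the removal of aggregates by autophagy, was 0.170 to 0.262 CPM in mucosa and 10.2 to 38.1 CPM (median 23.2) in tumors, a log2 fold change of 6.56 (SE 0.53, adjusted p = 5.91e-07). Of the 8 members whose symbol is Hspb and a number, not all of which need be small heat shock proteins, 5 were tested. Hspb2 was also higher but rested on 111 tumor UMIs and 1 mucosa UMI, and Hspb6 and Hspb11 were lower, with log2 fold changes of -0.62 and -0.67.

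The stress-inducible HSP70 genes followed. Hspa1a stood at 0.764, 1.14 and 1.48 CPM in the mucosa and at 6.31 to 61.5 CPM (median 19.5) in the tumors, with tumors 5 and 6 of mouse A at 61.5 and 58.9 CPM. All tumors exceeded all mucosa libraries, and the tumors lay further apart from each other than the lowest tumor lay from the highest mucosa library on the log scale. The log2 fold change was 4.17 (SE 0.84, adjusted p = 0.000735), and 3.54 (adjusted p = 0.00025) without tumors 5 and 6, an omission chosen after seeing the data. Hspa1b was 1.53 to 3.24 CPM in mucosa and 7.80 to 62.9 CPM in tumors, a log2 fold change of 3.13 (SE 0.66, adjusted p = 0.00103). Hspa2, an HSP70 best known from male germ cells, was 1.19 to 2.50 CPM in mucosa and 13.1 to 32.1 CPM in tumors (log2 fold change 3.44, SE 0.36, adjusted p = 3.55e-06).

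The other cytosolic HSP70 and HSP110 genes of the list had smaller log2 fold changes than Hspa1a and Hspa1b. Hspa8, the abundant cytosolic HSP70, was 947 to 1081 CPM in mucosa and 1366 to 1743 CPM in tumors, a log2 fold change of 0.37 (SE 0.10, adjusted p = 0.00623), which did not pass the threshold when the tumors of a mouse were summed (adjusted p = 0.0746). Hsph1, an HSP110 that exchanges the nucleotide of HSP70, was 12.5 to 15.1 CPM in mucosa and 17.6 to 46.3 CPM in tumors, a log2 fold change of 0.83 (SE 0.25, adjusted p = 0.0106). Hspa4, the other HSP110 of the list, had 0.21 (adjusted p = 0.0473). The 5 listed cytosolic HSP70 and HSP110 genes were thus all called higher. None of the 5 overlapped between tissues, beside a background of 32.7% of all genes. The list does not hold every HSP70 gene, and Hspa14, outside it, was called lower. Over all 65 members tested, 21 lay higher in every tumor than in any mucosa library, near that background.

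Among the cytosolic HSP90 genes only the inducible isoform passed the test. Hsp90aa1 was 303 to 355 CPM in mucosa and 530 to 877 CPM in tumors, with no overlap, and its log2 fold change was 0.85 (SE 0.15, adjusted p = 0.000264). Hsp90ab1, the constitutive isoform, was 1461, 2406 and 1933 CPM in mucosa 1, 2 and 3 and 2206 to 4146 CPM in tumors, so the groups overlapped (log2 fold change 0.40, SE 0.19, adjusted p = 0.0729). With mouse as a block the value for Hsp90ab1 was the same, 0.40, with an adjusted p of 0.0276. It did not pass when the tumors of a mouse were summed.

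Of the 5 listed J proteins of the cytosol, 2 were higher, 1 lower and 2 not called, near the shares of all genes (33.6% higher and 30.1% lower). Dnajb1, the heat-inducible starter of the HSP70 cycle, was 34.9 to 37.4 CPM in mucosa and 50.9 to 94.1 CPM in tumors (log2 fold change 0.69, SE 0.18, adjusted p = 0.00409), and Dnaja1 was 210 to 248 CPM in mucosa and 347 to 508 CPM in tumors (0.60, SE 0.11, adjusted p = 0.000299). Neither gene overlapped between the tissues. Dnaja2, a close relative of Dnaja1, went the other way, at 133 to 157 CPM in mucosa and 113 to 137 CPM in tumors, a log2 fold change of -0.42 (SE 0.09, adjusted p = 0.000745) that did not pass under scaling by total UMIs (-0.17, adjusted p = 0.0743). Dnajb4 (0.49, adjusted p = 0.0565) and Dnajb6 (0.12, adjusted p = 0.193) did not pass.

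Of the 7 listed ER members, 5 were lower in tumors, beside 30.1% of all genes, and Hspa5 and Dnajb9 were not called. Of the 5, Dnajc10 rested on 1 mucosa library and Hsp90b1 on the scaling. Dnajb11, the J protein that joins BiP on newly made secretory proteins, was 115, 150 and 113 CPM in mucosa 1, 2 and 3 and 65.0 to 83.4 CPM in tumors, with no overlap and a log2 fold change of -1.05 (SE 0.10, adjusted p = 1.99e-06). Dnajc3, which also assists BiP, was 123 to 157 CPM in mucosa and 78.7 to 111 CPM in tumors (-0.89, SE 0.11, adjusted p = 1.87e-05). Hspa13 fell by 0.54 and Hsp90b1 (GRP94, the HSP90 of the ER) by 0.35 on the log2 scale (adjusted p = 0.000491 and 0.0111), though Hsp90b1 did not pass under scaling by total UMIs (-0.09, adjusted p = 0.412). Dnajc10, a disulfide reductase, fell by 0.87 on the log2 scale (adjusted p = 0.00384), but this rested on mucosa 1, at 199.5 CPM against 79.1 and 70.4 CPM in the other two, and without it the value was -0.24 (adjusted p = 0.106). Hspa5, which encodes BiP itself, the central HSP70 of the ER, was 370 to 602 CPM in mucosa and 446 to 665 CPM in tumors, and did not pass (-0.08, SE 0.15, adjusted p = 0.654). Dnajb9 was 20.9 to 32.4 CPM in mucosa and 31.6 to 76.1 CPM in tumors (0.61, SE 0.26, adjusted p = 0.0515). With mouse as a block it passed at 0.51 (adjusted p = 0.0344), but not when the tumors of a mouse were summed.

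The 6 listed mitochondrial chaperones were called lower in tumor epithelium, beside 30.1% of all genes, and 2 of them, Hspe1 and Hspa9, lost the call under scaling by total UMIs. Dnajc15, a J protein at the import motor of the inner membrane, was 141, 139 and 169 CPM in mucosa 1, 2 and 3 and 59.8 to 110 CPM in tumors, with no overlap (log2 fold change -1.12, SE 0.18, adjusted p = 0.000134). Its relative at the same motor, Dnajc19, was 141 to 216 CPM in mucosa and 67.6 to 169.5 CPM in tumors, with overlap (-0.95, SE 0.27, adjusted p = 0.00792). Hspd1 (HSP60) fell by 0.60, Dnaja3 by 0.52, Hspe1 (HSP10) by 0.38 and Hspa9, the mitochondrial HSP70, by 0.31 on the log2 scale (adjusted p = 0.000315, 8.95e-05, 0.0442 and 0.00591), and each of these 4 overlapped between tissues. Under that scaling Hspe1 was -0.13 (adjusted p = 0.445) and Hspa9 -0.05 (adjusted p = 0.638), while Hspd1 (-0.34), Dnaja3 (-0.26), Dnajc15 (-0.87) and Dnajc19 (-0.70) passed. Dnajc30 and Dnajc4, which are also linked to mitochondria, fell by 1.21 and 1.06 on the log2 scale (adjusted p = 1.52e-05 and 6.65e-05). Dnajc30 was 39.5 to 50.9 CPM in mucosa and 18.7 to 30.8 CPM in tumors.

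Some low members outside the rule for named genes are given because of their size, chosen after their values were seen. Dnajc6 (auxilin, which uncoats clathrin vesicles) held 2177 UMIs in tumor epithelium against 4 in mucosa epithelium, or 388 times as many per UMI of the sum (counting interval 151 to 1430), and was 4.89 to 10.3 CPM in all tumors but tumor 6, at 0.253 CPM. Dnaja4 was 1.59 to 2.68 CPM in mucosa and 4.85 to 24.6 CPM in tumors (log2 fold change 2.40, SE 0.47, adjusted p = 0.000572). By family, 7 of 12 tested HSP70 and HSP110 genes were higher and 3 lower, 4 of 10 DNAJB genes higher and 2 lower, and 4 of 26 DNAJC genes higher and 11 lower, against 33.6% and 30.1% of all genes. The families' differences from these shares were not tested. Untested for low counts were Hspa12b, Hspa1l, Hspb3, Hspb7, Hspb9, Dnajb7, Dnajb8, Dnajb13, Dnajc5b and Dnajc5g.

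Tumor and mucosa epithelium differ in the cells they hold, so the same sums were made for 2 narrower sets. Of the tumor epithelial cells, 13412 of 17914 lay in 2 clusters with 20 mucosa cells between them, while the stem or transit-amplifying-like clusters held 4585 mucosa and 44 tumor cells. In the comparison of these crypt-like sets, 21 of 65 members were higher in tumors and 24 lower (background 37.2% and 31.2% of 14920 genes), and under scaling by total UMIs 31 and 16 (45.3% and 23.1% of all genes). The tumor and mucosa sides of this comparison lie almost wholly in different clusters. Cell type and tissue therefore cannot be told apart in it, and "crypt-like" does not mean matched cells. This comparison shares libraries and cells with the former. Markers of other cells moved with the tissue here too. The 8 neutrophil markers summed to 41.0 to 318 CPM in tumors and 0.171 to 6.93 CPM in mucosa. The 10 macrophage markers had 63.1 to 112 and 3.94 to 5.23 CPM, and the 7 plasma cell markers 176 to 502 and 54.1 to 78.2 CPM. The 7 epithelial markers overlapped (8807 to 14890 and 9374 to 10280 CPM). The part of these markers in the result was not tested. Dnajc10 was called in opposite directions, at -0.87 in all epithelial cells and 0.69 (SE 0.14, adjusted p = 0.000486) in crypt-like cells.

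Against crypt-like mucosa 2 of the 7 ER members were higher and 3 lower, near the shares of all genes, 37.2% and 31.2%. Dnajb9 was 9.85 to 10.7 CPM in mucosa and 33.5 to 81.1 CPM in tumors (log2 fold change 2.08, SE 0.30, adjusted p = 3.18e-05). Hspa5 was 0.36 (adjusted p = 0.0749). With mouse as a block Hspa5 passed at 0.38 (adjusted p = 0.0119), but not when the tumors of a mouse were summed. Dnajb11 (-0.70), Dnajc3 (-0.40) and Hsp90b1 (-0.30) were lower. In CPM, Hsp90b1 overlapped, at 524 to 635 in stem or transit-amplifying-like cells of mucosa and 476 to 569 in tumor epithelial-like cells. The calls in this paragraph are TMM-scaled, and under scaling by total UMIs the members called lower fell from 24 to 16. Of the mitochondrial members, Hspd1 was 661, 948 and 780 CPM in mucosa 1, 2 and 3 and 324 to 474 CPM in tumors, and Hspe1 was 853 to 990 CPM in mucosa and 385 to 698 CPM in tumors. Neither overlapped, and the log2 fold changes were -1.27 (SE 0.13, adjusted p = 1.59e-06) and -0.999 (SE 0.17, adjusted p = 0.000157). All 6 mitochondrial members were called lower here (31.2% of all genes), and 5 of the 6 did not overlap, beside 16.8% of all genes. Of the cytosolic HSP70 and HSP110 list, Hspa1a (0.228 to 0.722 CPM in mucosa, 6.87 to 66.4 CPM in tumors) and Hspa1b passed, whereas Hspa8 (0.03, adjusted p = 0.803), Hspa4 (0.06, adjusted p = 0.651) and Hsph1 (0.35, adjusted p = 0.196) did not. For Hspb1, 46544 UMIs in tumors stood against 6 in mucosa, a ratio per UMI of 2480 with a counting interval of 1140 to 6770.

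The absorptive-like cluster led by Ly6m, Clca4b and Saa1 held nearly equal numbers of both tissues (961 tumor and 1017 mucosa cells), and it was compared alone, an alternative chosen after seeing the data. There, 7 of 46 members were higher and 12 lower, beside 1446 and 1395 of all 7684 genes tested. Hspa1a (log2 fold change 0.92, adjusted p = 0.202), Hspa1b (0.77, adjusted p = 0.199), Hspa8 (0.24, adjusted p = 0.268) and Hsp90aa1 (0.20, adjusted p = 0.432) did not pass, Dnaja1 turned to -0.39 (adjusted p = 0.0462), and Hspb1 and Hspb8 had too few UMIs to be tested. Dnajb1 (1.55, adjusted p = 0.00022), Dnajb6 (1.16, adjusted p = 0.00101) and Hspa4 (0.58, adjusted p = 0.00924) were higher. Dnajc15 (-1.25), Dnajc19 (-0.96), Hspd1 (-1.08), Hspe1 (-1.14) and Hspa9 (-0.80) were lower, as in the whole epithelium (adjusted p = 5.81e-05, 0.00327, 0.0204, 0.00822 and 0.0114). Whether a gene's difference varied between these epithelial sets was not tested.

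**Figure D2:**
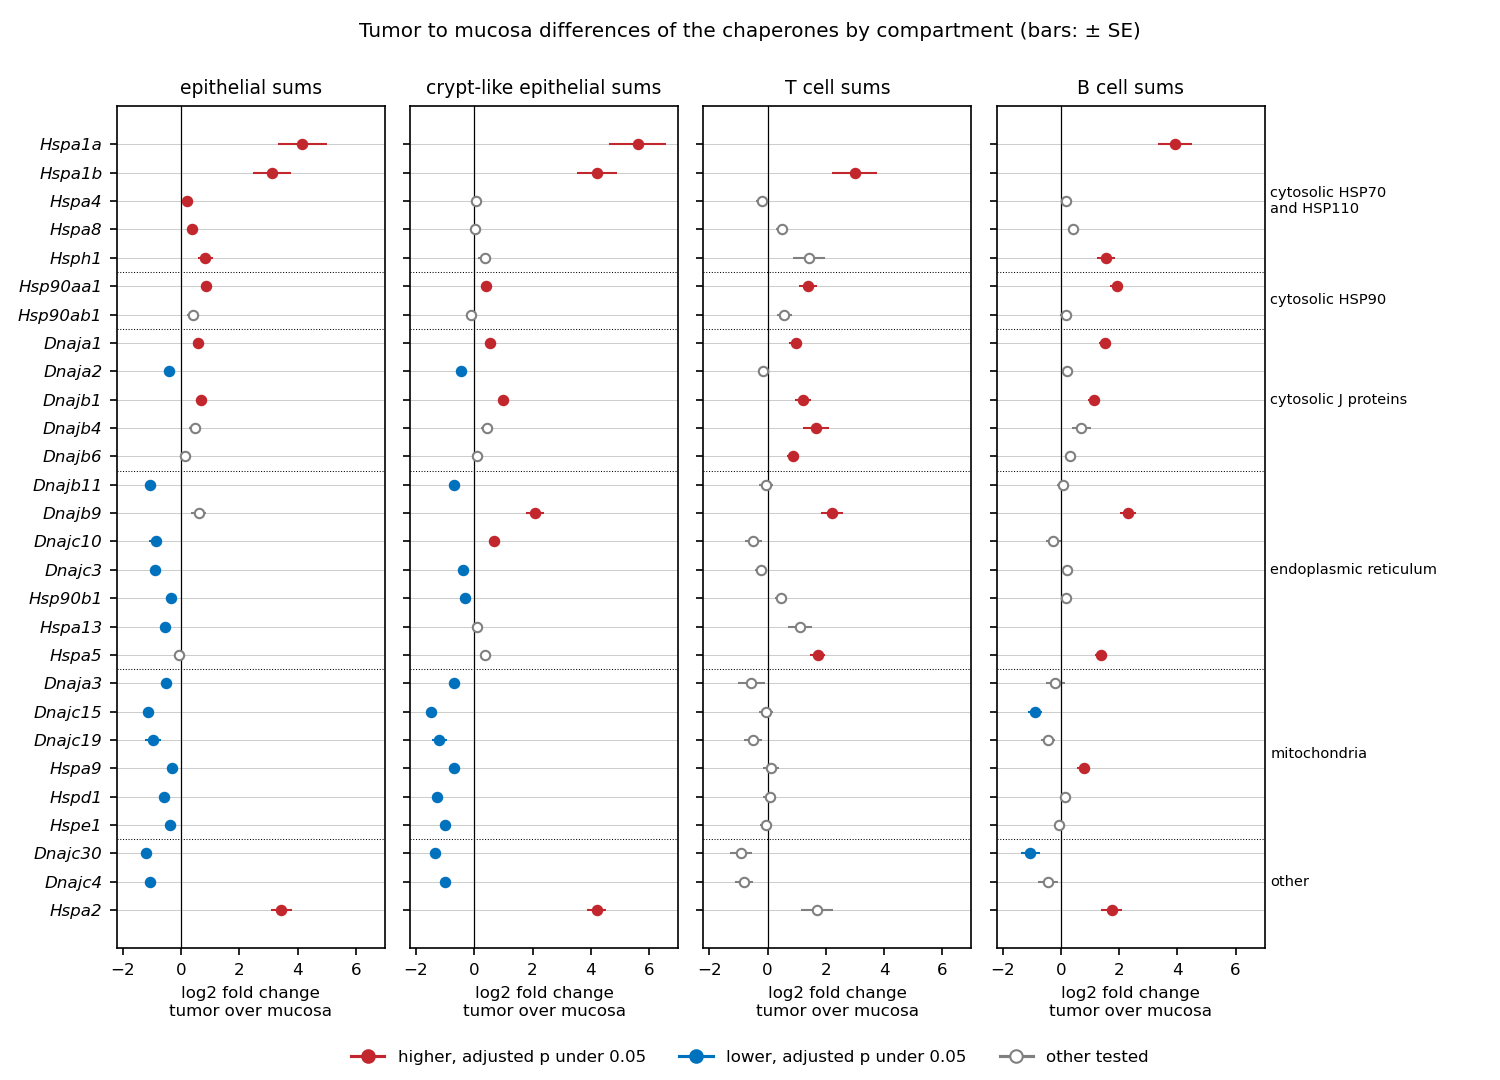
Log2 fold change of tumor over mucosa ± SE (TMM-scaled, edgeR) for 28 named genes, grouped by role, in the epithelial, crypt-like epithelial, T cell and B cell sums. Filled points passed an adjusted p of 0.05, open points did not, and genes untested or with at most 3 mucosa UMIs are not drawn. The mitochondrial genes lie left of 0 in both epithelial panels, and Hsp90aa1, Dnaja1 and Dnajb1 lie right of 0 in all 4.

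Of the leukocytes, T cell-like and B cell-like sums were compared between tissues, and no other class was tested. In T cell-like sums (3291 tumor cells of 10 libraries, and mucosa 1 and 3 with 209 and 83 cells, as mucosa 2 had only 10), 53 members were tested, 9 were higher in tumors and 0 lower. The background was 4.82% of 8398 genes higher and 3.04% lower, and at an unadjusted p under 0.05, 18 of the 53 were higher and 6 lower, beside 13.5% and 10.3% of all genes. DESeq2 also called 0 lower. Without regard to the test, 12 of the 53 were higher in every tumor than in either mucosa library (8.06% of all genes) and 5 lower (12.2%). The 9 were Hspa1a, Hspa1b, Hsp90aa1, Dnaja1, Dnajb1, Dnajb4, Dnajb6, Hspa5 and Dnajb9. Hspa5 had 216 and 266 CPM in mucosa 1 and 3 and 489 to 940 CPM in tumors (log2 fold change 1.72, SE 0.25, adjusted p = 0.000247). Dnajb9 had 23.6 and 17.7 CPM in mucosa and 64.4 to 128 CPM in tumors (2.22, SE 0.37, adjusted p = 0.000921). Hspa1a had no UMI in the mucosa T cell-like cells and 448 in those of tumors, where it was 19.4 to 59.5 CPM, at least 13.0-fold higher against a floor of 3 UMIs over the mucosa group. Hsp90aa1 (1.39, SE 0.30, adjusted p = 0.00696), Dnajb1 (1.22, SE 0.27, adjusted p = 0.00698) and Dnaja1 (0.96, SE 0.24, adjusted p = 0.0164) were higher as well. None of the 6 mitochondrial genes passed, and they ranged from -0.56 (Dnaja3) to 0.12 (Hspa9).

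These calls lean on few mucosa cells. Without mucosa 1 the T cell-like count dropped from 9 to 1, Hspa5 (1.78, adjusted p = 0.0204), and without mucosa 3 to 5, in fits that take the lone mucosa library to vary like the tumors. The share of all genes called higher fell with it, from 4.82% to 0.442% and 2.20%. When a T cell-like but unnamed cluster led by Il17a, Tnfrsf4 and Icos was added, all 3 mucosa libraries entered and 15 of 54 members were higher and 0 lower, beside 907 and 633 of all 10264 genes tested, which were also more calls than without it. Markers of other cells also moved with the tissue, as the 8 neutrophil markers summed to 115 to 748 CPM in the tumor T cell-like sums and 11.8 to 13.0 CPM in mucosa, and the 10 macrophage markers to 48.2 to 286 and 16.5 to 23.6 CPM. The 7 plasma cell markers summed to 83.1 to 789 CPM in tumors and 5.90 to 65.0 CPM in mucosa. Lower in tumors were the 7 epithelial markers (63.9 to 175 against 186 to 579 CPM) and the 9 T cell markers themselves (3178 to 5076 against 5909 to 7717 CPM). Their part in the result was not tested.

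The T cell-like class does not hold all mucosa cells with lymphocyte genes. A cluster led by Ccl5, Gzma and Cd160, genes of cytotoxic and intraepithelial lymphocytes, held 4175 mucosa and 56 tumor cells and stayed unnamed because its depth was low (median 1770 UMIs) and no T cell marker of the list was among its 10 leading genes. In its 3 mucosa libraries Hspa5 was 309 to 390 CPM, Dnajb9 21.2 to 26.2 CPM, Hsp90aa1 350 to 385 CPM, Dnajb1 59.2 to 59.9 CPM and Hspa1a 0.544 to 2.33 CPM, and it was not tested against tumor cells.

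In B cell-like sums 11 of 41 tested members were higher in tumors and 4 lower (background 19.3% and 20.1% of 5714 genes). By role, 3 of 5 cytosolic HSP70 and HSP110 genes, 1 of 2 cytosolic HSP90 genes, 2 of 5 cytosolic J proteins and 2 of 6 ER genes were higher. Hsp90aa1 was 283 to 298 CPM in the 3 mucosa libraries and 643 to 1395 CPM in tumors, with a log2 fold change of 1.92 (SE 0.23, adjusted p = 1.05e-06). Dnajb9 (2.30, SE 0.28, adjusted p = 1.24e-06), Dnaja1 (1.52, SE 0.22, adjusted p = 1.19e-05), Hspa5 (1.37, SE 0.21, adjusted p = 2.11e-05) and Dnajb1 (1.15, SE 0.21, adjusted p = 0.000126) did not overlap either. In all, 7 of the 41 members lay higher in every tumor than in any mucosa library (7.61% of all genes). Hsph1 (1.56, adjusted p = 0.000396), Hspa2 (1.75, adjusted p = 0.000641) and Hspa9 (0.79, adjusted p = 0.00738) were higher with overlap, and Hspa8 passed with mouse as a block alone (0.41, adjusted p = 0.057, and 0.40, adjusted p = 0.0334). Hspa1b rested on 2 mucosa UMIs against 395 in tumors, a ratio per UMI of 53.1 with a counting interval of 14.6 to 440. Lower were Dnajc15, Dnajc30, Dnajc7 and Dnajc8 (-0.89, -1.04, -0.70 and -0.52). Different clusters held most B cells of each tissue, 4439 of 4505 tumor cells in a cluster led by Ebf1, Bank1 and Fcmr and 1005 of 1091 mucosa cells in a cluster led by Ms4a1, Cd79b and Cd79a. The 8 neutrophil markers summed to 228 to 814 CPM in the tumor and 1.93 to 20.7 CPM in the mucosa B cell-like sums. The 10 macrophage markers summed to 1279 to 3075 and 1081 to 1756 CPM. Lower by median in tumors were the 7 epithelial markers (70.2 to 352 against 293 to 1589 CPM) and the 7 plasma cell markers (743 to 2400 against 1845 to 2812 CPM). So were the 6 immune markers, without overlap (2871 to 6425 against 7150 to 8908 CPM). The part of these markers in the result was not tested.

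The log2 fold changes of Hsp90aa1 in epithelial, crypt-like, T cell-like and B cell-like sums were 0.85, 0.41, 1.39 and 1.92, and those of Dnajb1 0.69, 0.99, 1.22 and 1.15, from comparisons that use the same animals and, for the epithelial pair, the same cells. Whether a difference depended on the class was tested as an interaction between epithelial and T cell-like sums of the same libraries. It was called for 7 members, where the background is 3.66% of genes with a positive and 5.00% with a negative epithelial minus T cell-like value. With any 1 of tumors 1, 6, 7, 8 and 9 left out, 4 members were called, all negative. The shares of all genes were then 3.33% to 3.56% positive and 4.35% to 4.82% negative. With tumor 2 or tumor 4 left out, 1 member was positive and 4 negative. The shares of all genes were 3.60% and 3.54% positive and 4.62% and 4.45% negative. Fewer were also called without mucosa 1 or mucosa 3, which leaves 1 mucosa library in the T cell-like sums. Hspa5 had the smallest p (epithelial minus T cell-like log2 difference -1.61, SE 0.20, adjusted p = 7.09e-06), followed by Dnajb9 (-1.75, adjusted p = 0.00202), Dnajc15 (-1.09, adjusted p = 0.0039), Hspa13 (-1.64, adjusted p = 0.00799), Dnajb6 (-0.73, adjusted p = 0.0423) and Hsp90b1 (-0.74, adjusted p = 0.0451). Dnajc2, which acts at the ribosome, was the sole one with a positive value in edgeR (0.74, adjusted p = 0.0423). Its own log2 fold changes were 0.07 in epithelial and -0.50 in T cell-like sums. DESeq2 called 5 members positive and 6 negative, beside 6.28% and 3.92% of all genes. Dnajc15 was lower in epithelium (-1.12) and did not pass in T cell-like sums (-0.06). For Hsp90aa1 (-0.45, SE 0.23, adjusted p = 0.275), Dnajb1 (-0.48, SE 0.26, adjusted p = 0.309) and Hspa1b (0.33, SE 0.89, adjusted p = 0.949) no difference between the classes was called, and for Hspa1a it could not be estimated with 0 UMIs in the mucosa T cell-like cells.

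Genes that share pathways with the set were counted from lists, to be read against the shares of all genes above (33.6% higher and 30.1% lower in epithelial, 37.2% and 31.2% in crypt-like sums). Of 21 genes around HSF1 and the co-chaperones, 9 were higher and 7 lower in tumor epithelium (median log2 fold change 0.14), and 6 higher and 9 lower against crypt-like mucosa (median -0.17). The lens and muscle small heat shock protein Cryab was 0.083 to 0.238 CPM in mucosa and 1.37 to 23.1 CPM in tumors (5.48, adjusted p = 0.000165), the collagen chaperone Serpinh1 was also higher, with 4 mucosa UMIs (5.31, adjusted p = 0.00203), and Fkbp5, an HSP90 partner induced by glucocorticoids, was 18.4 to 54.0 CPM in mucosa and 4.39 to 13.5 CPM in tumors (-2.55, adjusted p = 4.68e-06). Of 21 ER unfolded protein response genes, 3 were higher and 12 lower (median -0.45), among the latter Selenos (-1.31), Ern2 (-1.26), Sdf2l1 (-1.20) and Pdia6 (-1.16), whereas against crypt-like mucosa 7 were higher and 7 lower. Ern2 is a sensor of secretory epithelium. Of 12 genes of mitochondrial proteostasis, 1 was higher and 5 lower, with Htra2 at -0.998, the HSP70 nucleotide exchanger Grpel1 at -0.85 and Clpx at -0.79. Grpel2, the paralog of Grpel1, was at 0.64. Of the 14 subunits of the TRiC and prefoldin chaperones, 2 were higher and 2 lower in epithelium, and 0 higher and 7 lower against crypt-like mucosa in the same test.

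Immediate early genes, which answer within minutes to handling of tissue as well as to growth signals, were mostly higher in tumors in the 4 comparisons made. Of 15 such genes, 13 were higher and 0 lower in epithelium, 14 and 0 in crypt-like cells, 10 and 0 in T cell-like sums and 13 and 0 in B cell-like sums, where 33.6%, 37.2%, 4.82% and 19.3% of all genes were higher. Their summed level in the epithelial sums was 1511 to 1779 CPM in mucosa and 2787 to 6110 CPM in tumors, highest in tumor 6, and in T cell-like sums 3046 and 3061 CPM against 4901 to 7077 CPM. Atf3 was 23.0 to 25.3 CPM in mucosa epithelium and 209 to 460 CPM in tumor epithelium. The 2 tissues were dissociated differently, and the part of dissociation in the rise of the inducible chaperones was not tested.

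Levels by cell class are given as a description without a test. Among the named classes, the summed level of all members stood highest in epithelium, at 11280 ± 727 CPM (SD over 3 mice) in the tumor epithelial-like class and 10860 ± 1580 CPM in stem or transit-amplifying-like cells of the mucosa, which did not differ beyond their spread. It was 8570 ± 766 CPM in T cell-like, 8007 ± 750 in B cell-like, 7225 ± 650 in macrophage-like, 6513 ± 641 in plasma cell-like and 3809 ± 181 CPM in absorptive-like cells of tumors. In mucosa its mean was lower in T cell-like (6512 ± 819 CPM, 2 mice) and B cell-like cells (5792 ± 724 CPM), but libraries overlapped in both. T cell-like cells had 5933 to 7091 CPM in mucosa and 6698 to 9786 CPM in tumors, and B cell-like cells 5170 to 6587 and 6298 to 9322 CPM. The level was higher in plasma cell-like cells of mucosa, at 8937 to 11360 CPM against 5263 to 8213 CPM in tumors, without overlap. Neutrophil-like cells had 2315 ± 165 CPM.

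**Figure D3:**
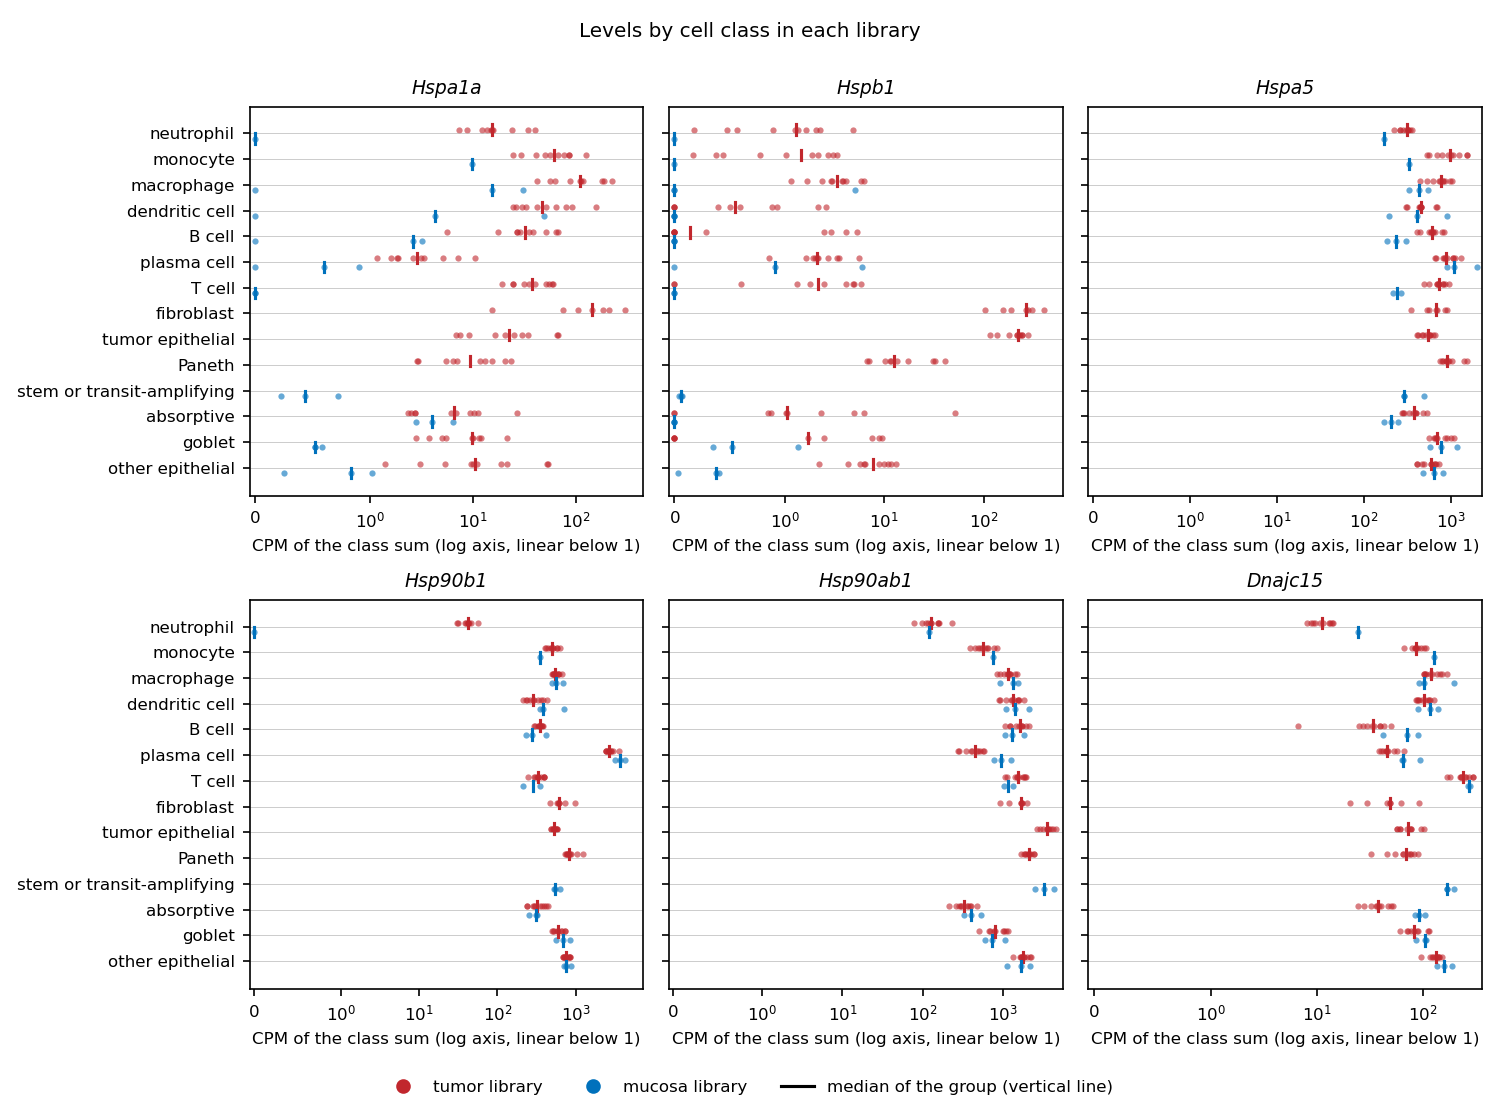
CPM of 6 members in the sum of each cell class, one point per tumor (red) or mucosa (blue) library with at least 20 cells, and the group median as a vertical line, on a log axis that is linear below 1. Hspb1 stands at 116 CPM or more in tumor epithelial-like and 103 CPM or more in fibroblast-like cells, while Hspa1a spreads over myeloid, lymphoid and epithelial classes of the tumors.

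Hspb1 stood far higher in tumor epithelial-like and fibroblast-like cells than in the other named classes. Hspb1 was 116 to 283 CPM (median 223) in tumor epithelial-like cells and 103 to 408 CPM (median 267) in fibroblast-like cells of the 7 tumors with at least 20 such cells. Its median was 357 CPM in the tumor epithelial cluster led by Mt4, Ptn and Mt3, and 70.2 CPM in the cluster led by Onecut2, Cxcl5 and Krt36. Other epithelium of the same tumors was much lower, with medians of 12.6 CPM in Paneth-like, 1.73 CPM in goblet-like and 1.04 CPM in absorptive-like cells, although tumor 2 reached 51.3 CPM in the last. In leukocyte classes the tumor medians were 0.141 (B cell-like) to 3.37 CPM (macrophage-like). Free RNA can give UMIs in cells that do not express a gene, and to allow for it 9.37 Hspb1 UMIs were found per 100 Epcam UMIs in tumor epithelial-like cells, 4.25 in B cell-like, 8.61 in neutrophil-like, 12.4 in T cell-like and 32.3 in macrophage-like cells. Hspb8 had tumor medians of 43.0 CPM in fibroblast-like, 30.7 CPM in tumor epithelial-like and 24.5 CPM in Paneth-like cells, and 0 to 0.462 CPM in the other classes named here. The 7 fibroblast markers summed to 0.414 to 12.4 CPM in the tumor and 0.127 to 1.24 CPM in the mucosa epithelial sums, and their part in the Hspb1 difference was not tested.

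Hspa1a had another pattern. Its tumor medians were 144 CPM in fibroblast-like, 111 CPM in macrophage-like, 61.5 CPM in monocyte-like, 46.8 CPM in dendritic cell-like, 37.9 CPM in T cell-like, 31.9 CPM in B cell-like, 22.6 CPM in tumor epithelial-like, 15.2 CPM in neutrophil-like and 2.88 CPM in plasma cell-like cells. Neighbors in this order overlapped over libraries. A macrophage-like cluster of low depth, with a median of 1241 UMIs per cell and Hspa1a among its 10 leading genes, stood at 159 to 463 CPM. In mucosa the gene was 0.228 to 0.723 CPM in stem or transit-amplifying-like and 0.519 to 0.584 CPM in goblet-like cells. Absorptive-like cells of mucosa had 2.82 to 6.45 CPM. The 101 macrophage-like cells of mucosa held 7 UMIs of Hspa1a, or 30.6, 0 and 15.3 CPM in mucosa 1, 2 and 3. Dendritic cell-like cells (69 in mucosa) had 4.33, 0 and 49.1 CPM, the last above their tumor median. Monocyte-like cells of mucosa 3 had 9.83 CPM. The 8 neutrophil markers summed to 64.5 to 339 CPM in the tumor and 6.79 to 27.4 CPM in the mucosa epithelial sums. The 10 macrophage markers summed to 63.6 to 120 and 4.52 to 7.72 CPM. The 7 plasma cell markers summed to 129.5 to 502.5 and 48.2 to 91.3 CPM, and the 9 T cell markers to 11.8 to 32.7 and 3.28 to 7.96 CPM. The part of these markers in the epithelial difference was not tested.

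The tumors that were high in Hspa1a in one class were mostly high in others. Of 11 classes with at least 20 cells in all 10 tumors, tumor 5 or 6, both of mouse A, was highest in 9, and these tumors were the top pair in 5. In macrophage-like cells Hspa1a was 186 and 224 CPM in tumors 5 and 6 and 42.2 to 179 CPM in the other tumors, of which tumor 3 was highest. In tumor epithelial-like cells it was 65.6 and 67.3 CPM in tumors 5 and 6 and 6.83 to 34.5 CPM in the others. Exceptions were neutrophil-like cells, highest in tumors 7 and 1 at 40.0 and 34.6 CPM, and plasma cell-like cells, highest in tumor 8 at 10.5 CPM. Classes of 1 tumor share a library and its free RNA. Cell quality also varied. A stricter limit of 10% mitochondrial UMIs kept 1104 of 2036 epithelial cells of tumor 5 and 704 of 1672 of tumor 6. It kept 868 of 1757 in tumor 9 and 1248 of 1775 in tumor 1. In mucosa 1, 2 and 3 it kept 2295 of 2518, 5759 of 7256 and 4591 of 5453. The part of cell quality in this order was not tested.

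**Figure D4:**
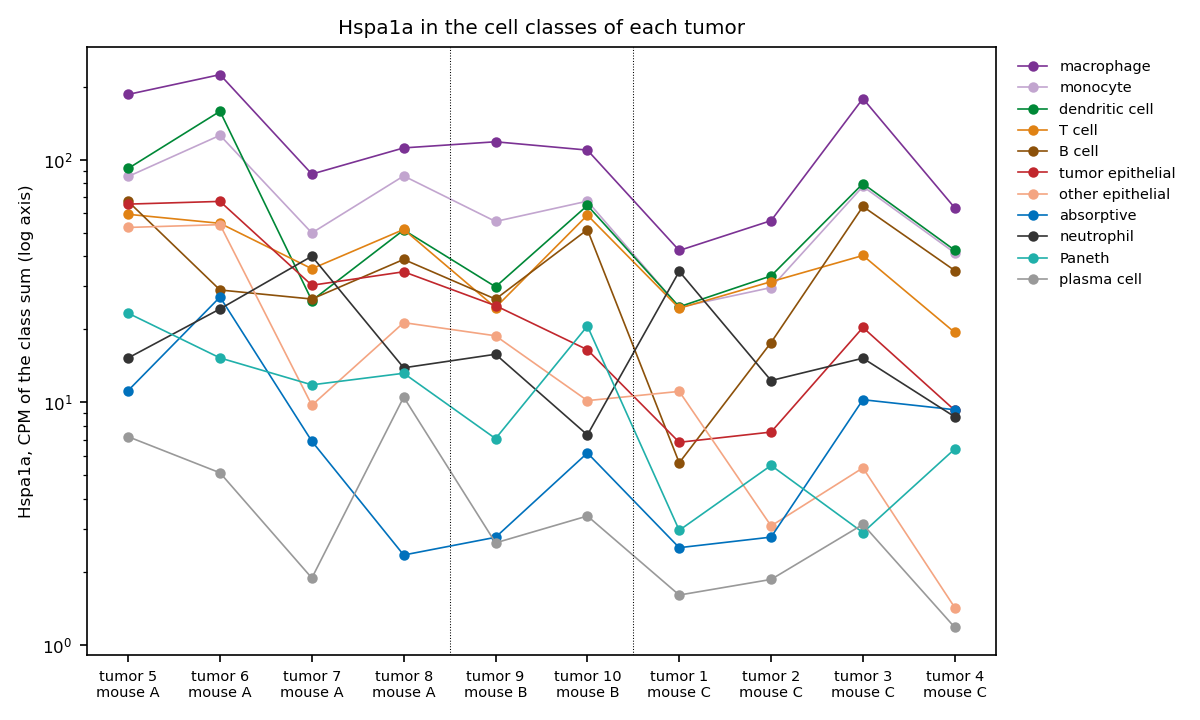
Hspa1a, in CPM of the class sum on a log axis, for 11 cell classes of each tumor, ordered by mouse; lines join the points of a class and carry no order. Tumors 5 and 6 of mouse A hold the highest macrophage-like (186 and 224 CPM) and tumor epithelial-like values (65.6 and 67.3 CPM).

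The ER and mitochondrial members varied with class as well. Hsp90b1 was 2406 to 3547 CPM in plasma cell-like cells of tumors and 3156 to 4241 CPM in those of mucosa, above every other named class, which reached at most 1239 CPM (Paneth-like cells of tumor 7). Hspa5 spread less among leukocytes, with tumor medians of 310 CPM in neutrophil-like, 872 CPM in plasma cell-like and 960 CPM in monocyte-like cells. Dnajc3 was 351 to 510 CPM in plasma cell-like cells of tumors and 9.43 to 20.4 CPM in neutrophil-like cells. Hspd1 was highest in stem or transit-amplifying-like cells of mucosa, at 661 to 948 CPM, then in tumor epithelial-like cells, at 317 to 474 CPM, and was 5.75 to 12.5 CPM in neutrophil-like cells. Dnajc15 was 169 to 301 CPM in T cell-like cells of tumors and 6.65 to 50.3 CPM in B cell-like cells of tumors. Hsp90ab1 was 2656 to 4573 CPM in tumor epithelial-like and 2507 to 4299 CPM in stem or transit-amplifying-like cells, which overlapped, and 214 to 474 CPM in absorptive-like cells of tumors.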

How the data were processed

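Single-cell RNA libraries (10x 3′ v3.1) of 10 tumors and 3 mucosa samples were analysed. The authors deposited UMI counts per gene and barcode, not normalized, made with Cell Ranger on mm10 (6.0.0 in the submitters' processing notes; the study's methods name another version). Barcodes with under 500 UMIs, under 200 genes or over 25% mitochondrial UMIs were dropped, and the highest simulated-doublet scores were removed at a rate of 0.8% per 1000 barcodes of a library, 10397 barcodes in all. Depth after filtering, as median UMIs per cell, was 3614 to 5029 in tumors and 7177 to 9421 in mucosa. Cells were clustered on 2000 variable genes without the members (30 components, Leiden 0.10.2, resolution 1, 39 clusters), and clusters were named from marker lists. Counts were summed per library and class (at least 20 cells) and tested with edgeR 4.0.16 (quasi-likelihood, TMM, filterByExpr, Benjamini-Hochberg over all genes tested, threshold 0.05), a fit that was also tested on simulated data and missed part of the small changes there. Intervals and floors (3 UMIs) cover counting error only. DESeq2 1.42.0, other scalings, cell filters, a block for mouse, sums per mouse and leaving out each library were alternatives.

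The mouse of each library was taken from the animal codes in the titles, so tumors and mucosa with the same code share an animal. Libraries of the same mouse deviated from their group means with correlations of 0.146, 0.0697 and 0.211 (mice A, B and C) in epithelial sums and 0.179, -0.0331 and 0.0799 in B cell-like sums. P-values treat the tumors of a mouse as separate samples and so measure the spread between these samples.

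The members and lists were chosen with earlier results of these data known. Named genes were those of 6 fixed role lists plus 5 called members in each direction. Those 5 had the largest epithelial log2 fold change and a mean of at least 10 CPM in a group. For pathway lists, at most 4 genes with the largest called change were named. Other genes, such as Dnajc2, Dnajc7, Dnajc8, Hspb2, Hspb6 and Hspb11, are given outside this rule with their values known. This is not always said beside them. Class levels use the same sums in CPM.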

Additional observations from a re-analysis of the deposited data

Results flagged for a closer look

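By a test of the interaction in edgeR, the difference between tumor and mucosa was called unlike in epithelial and T cell-like sums for 6 of the named genes. The epithelial minus T cell-like log2 differences were -1.61 for Hspa5 (adjusted p = 7.09e-06), -1.75 for Dnajb9 (adjusted p = 0.00202), -1.64 for Hspa13 (adjusted p = 0.00799), -1.09 for Dnajc15 (adjusted p = 0.0039), -0.74 for Hsp90b1 (adjusted p = 0.0451) and -0.73 for Dnajb6 (adjusted p = 0.0423). For the ER genes Hspa5, Dnajb9, Hspa13 and Hsp90b1 the T cell-like values were 1.72, 2.22, 1.12 and 0.45 and the epithelial values -0.08, 0.61, -0.54 and -0.35. Not all of these passed alone in edgeR. Hspa13 and Hsp90b1 did not pass in T cell-like sums (adjusted p = 0.0893 and 0.182), and Hspa5 and Dnajb9 did not pass in epithelial sums. The T cell-like side rests on 292 mucosa cells of 2 libraries. With any 1 of tumors 1, 2, 4, 6, 7, 8 and 9 left out, 4 members were called negative in place of 6. The share of all genes called negative was then 4.35% to 4.82%, beside 5.00% in the main fit. Fewer were also called without mucosa 1 or mucosa 3.

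In 3 of 85 groups of 10 tumors looked at, 1 tumor stood far from the rest by Dixon's test, where chance gives about 1 in 20 groups. Hspa2 was 49.97 CPM in T cell-like cells of tumor 6, with the next tumor at 29.65 CPM. Hspd1 was 195.9 CPM in T cell-like cells of tumor 3, with the next at 152.5 CPM, and 219.2 CPM in B cell-like cells of tumor 5, with the next at 153.3 CPM.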

How the results depend on the processing

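Counts of members are given as higher and lower in tumors. In epithelial sums they were 22 and 23 of 65 (33.6% and 30.1% of all genes), under scaling by total UMIs alone 31 and 14 (44.6% and 20.0%), in the shared absorptive-like cluster alone 7 and 12 of 46 (18.8% and 18.2%, fewer cells), with DESeq2 25 and 26 (34.9% and 31.3%), and with tumors summed per mouse 19 and 17 of 66 (29.6% and 25.7%). Leaving out each library in turn gave 19 to 25 and 17 to 24 in epithelial (28.7% to 34.3% and 25.6% to 31.3% of all genes), 18 to 22 and 21 to 25 in crypt-like (33.0% to 37.6% and 27.0% to 31.6%), 1 to 10 and 0 in T cell-like (0.442% to 6.49% and 0.226% to 4.82%), and 9 to 13 and 2 to 5 in B cell-like sums (12.9% to 19.7% and 14.4% to 23.4%). The lowest T cell-like count, 1, came without mucosa 1, and 5 without mucosa 3. The lowest B cell-like count of lower members, 2, came without mucosa 2. A limit of 10% mitochondrial UMIs gave 22 and 21 of 65 in epithelial sums (30.8% and 29.7% of all genes). With the cluster led by Il17a added, 15 members were higher in T cell-like sums (8.84% of all genes) and 10 named genes had an interaction, where calls over all genes rose as well, from 3.66% to 6.07% positive and from 5.00% to 11.4% negative. In the main fit the interaction was called positive for 1 member and negative for 6. With 1 tumor left out, 0 to 1 members were positive and 4 to 8 negative, beside 3.33% to 4.60% and 4.35% to 6.30% of all genes. Without mucosa 1 or mucosa 3, which leaves 1 mucosa library in the T cell-like sums, fewer were called, over all genes as well. The cause was not tested.

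With mouse as a block the counts were 24 and 24 in epithelial (34.4% and 31.3% of all genes), 22 and 25 in crypt-like (38.0% and 32.4%), 9 and 0 in T cell-like (3.98% and 2.12%) and 13 and 4 in B cell-like sums (19.4% and 20.7%). Among named genes in epithelium, the block changed the calls of Hsp90ab1 and Dnajb9 given above. Over all alternatives, 3069 values of single genes stayed on the same side of the threshold, 104 no longer passed, 58 newly passed and 2 reversed. With the tumors of a mouse summed, 107 stayed on the same side, 8 no longer passed and 0 newly passed. Hspa8 in epithelium was among the 8, and the rest of them are not named here. A change of sign was counted as reversed only where the main or the alternative fit passed. Any changes of sign among values that passed in neither fit are within the 3069 and were not counted apart. Reversed were Dnaja1 in the shared absorptive-like cluster (-0.39) and the interaction of Hspb1 with DESeq2 (5.89), a gene with 0 UMIs in mucosa T cell-like cells. Low members, the 292 mucosa cells of the T cell-like class and 3 mice limit what could be detected.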

Other observations

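Dnajb9, an ER J protein induced in the unfolded protein response, is given in further classes as values without a test. In macrophage-like cells it was 42.5 to 126.9 CPM (median 100.4) in the 10 tumors and 15.3 to 22.7 CPM in the 3 mucosa libraries, where it rested on 7 UMIs. In plasma cell-like cells it was 82.2 to 181.0 CPM in tumors and 77.1 to 93.7 CPM in mucosa, with overlap, and in absorptive-like cells 15.3 to 35.0 CPM in tumors and 30.2 to 40.6 CPM in mucosa. The level was lowest in tumor 1 in macrophage-like, plasma cell-like and monocyte-like cells alike.

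The pathway lists were also counted in the leukocyte sums. Of the HSF1 and co-chaperone genes, 1 of 18 was higher and 0 lower in T cell-like sums, and 3 of 16 were higher and 4 lower in B cell-like sums, all by edgeR. The shares of all genes to read these and the next counts against are 4.82% higher and 3.04% lower in T cell-like and 19.3% and 20.1% in B cell-like sums. Of the ER unfolded protein response genes, 2 of 20 were higher and 0 lower in T cell-like sums and 4 of 19 were higher and 2 lower in B cell-like sums. Of the mitochondrial proteostasis genes, 0 of 12 were higher and 1 lower in T cell-like sums and 1 of 10 was higher and 3 lower in B cell-like sums. Of the 14 TRiC and prefoldin genes, 0 were higher in either, and 2 and 1 were lower.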
